A study of Mus musculus with 18 samples.

Results

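The *soleus*, a slow postural calf muscle, and the extensor digitorum longus (EDL), a fast muscle that extends the toes, were profiled for 10 genes of the blood vessel wall and of vascular tone. They were the angiogenic ligands *Vegfa* and *Vegfb*, the receptors *Kdr*, *Flt1* and *Tek*, the endothelial surface and junction genes *Vwf*, *Pecam1* and *Cdh5*, and the vasoactive genes *Agt* and *Npr3*. Members were all probe sets whose annotated gene symbol is one of these names, which gave 16 of the 22626 probe sets tested and 10 of the 12393 genes named. *Flt1* and *Npr3* had 3 probe sets each, *Cdh5* and *Vegfa* 2 each and the others 1 each, and no member probe set named several genes.

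All mice were male C57BL/N6, 19 to 20 weeks old. Bion Flown (BF) mice spent 30 days in orbit on the Bion-M1 biosatellite, on paste food in the flight habitat, and were transported after landing before the muscles were taken. Flight Control (FC) mice spent 30 days in standard cages of the animal facility on chow. Bion Ground (BG) mice spent 30 days on the ground in a copy of the flight habitat, on the same paste food as BF. Each group had 3 arrays per muscle (18 arrays), out of 5 mice per group in the study. The labels number the samples 1 to 3 in each group and do not say whether the *soleus* and the EDL of one number came from one mouse. Flight, landing and transport cannot be told apart in BF vs. BG, nor food and habitat in FC vs. BG, and BF vs. FC holds all of these.

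Endothelial cells line every capillary, and skeletal muscle carries a dense capillary bed, denser around slow and oxidative fibres than around fast ones. Muscle fibres and other cells release vascular endothelial growth factors, which bind receptor tyrosine kinases on the endothelium and drive vessel growth and upkeep, while the angiopoietin receptor Tek keeps vessels quiescent. Angiotensinogen is the precursor from which renin and angiotensin-converting enzyme release the vasoconstrictor angiotensin II, and natriuretic peptides act in the opposite direction and are cleared by the receptor encoded by *Npr3*. The arrays read whole muscle, in which fewer cells of a type and less RNA per cell cannot be told apart.

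Proximal promoters from RefSeq (GRCm38.p6, from 250 bases before to 50 bases after the annotated start) matched 7 of the 10 genes, and those of *Vegfb*, *Kdr* and *Agt* are shown as the ligand and the receptor that were lower in flown *soleus* with folds near 2 and the gene that was higher. Capitals mark matches on either strand to the GC box (GGGCGG), the hypoxia response core (ACGTG or GCGTG), the ETS core (CNGGAA, the site of a factor family active in endothelium) and the TATA box (TATAAA). Each sequence is given 5′ to 3′ on the strand of its gene.
Vegfb (chr19:6987602-6987901, minus strand): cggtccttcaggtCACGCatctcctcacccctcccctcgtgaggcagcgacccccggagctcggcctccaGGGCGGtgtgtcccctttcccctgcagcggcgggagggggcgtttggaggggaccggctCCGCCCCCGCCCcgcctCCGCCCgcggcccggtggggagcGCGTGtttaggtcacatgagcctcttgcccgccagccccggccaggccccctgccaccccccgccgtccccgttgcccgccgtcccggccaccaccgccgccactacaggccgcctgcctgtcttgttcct
Kdr (chr5:75978406-75978705, minus strand): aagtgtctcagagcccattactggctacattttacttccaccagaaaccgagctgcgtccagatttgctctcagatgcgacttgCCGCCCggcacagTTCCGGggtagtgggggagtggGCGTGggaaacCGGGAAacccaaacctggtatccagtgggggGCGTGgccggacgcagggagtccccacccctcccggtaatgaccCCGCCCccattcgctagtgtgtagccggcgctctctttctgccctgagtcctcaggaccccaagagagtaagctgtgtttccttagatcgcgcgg
Agt (chr8:124569657-124569956, minus strand): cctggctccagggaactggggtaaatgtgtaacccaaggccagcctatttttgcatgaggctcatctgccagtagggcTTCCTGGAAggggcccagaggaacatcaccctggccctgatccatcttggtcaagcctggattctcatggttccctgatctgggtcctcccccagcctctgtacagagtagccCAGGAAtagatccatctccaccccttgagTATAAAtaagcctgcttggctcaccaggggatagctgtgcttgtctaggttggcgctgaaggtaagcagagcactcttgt
In *Vegfb* 2 GC boxes abut and are marked as 1 run, and in *Agt* 2 ETS cores on opposite strands overlap.

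The *Vegfb* window held GC boxes and the hypoxia response core and the *Kdr* window held both and the ETS core, while the *Agt* window held the TATA box and the ETS core only. The GC box was found in the windows of 4 of the 7 genes (*Kdr*, *Flt1*, *Vegfa* and *Vegfb*), against 35.7% of all 32851 promoter windows of that length. The hypoxia response core was found in the same 4 genes, against 43.8% of all windows. The ETS core was found in 5 (*Kdr*, *Flt1*, *Tek*, *Vegfa* and *Agt*), against 61.7% of all windows. These are counts of genes beside shares of windows, and the 7 genes had 8 windows, as *Vegfa* had a second window inside the gene. The hypoxia response core of *Vegfa* lay only in that inner window, and its ETS core only in the window at the gene start. The TATA box was found in *Flt1* and *Agt*, against 13.6% of all windows. The cyclic AMP response element (TGACGTCA) was found in *Flt1* only, against 1.79% of all windows, and the *Npr3* window held none of the motifs searched. These matches are descriptions of the sequence.

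Signals are on the log2 scale of the robust multichip average (RMA), so that a difference of 1 is a change of 2-fold. They ran from 2.11 to 14.53 over the table, with array medians from 6.17 to 6.26 and correlations of 0.978 to 0.995 between arrays of one group. The slow myosin gene *Myh7* was between 12.85 and 13.93 in all *soleus* arrays and at most 10.75 in EDL, while the fast myosin gene *Myh4* was between 14.02 and 14.32 in EDL, as the muscle labels say. The probe set of each gene with the highest mean signal lay between the 61.9th percentile (*Vwf*) and the 88.5th percentile (*Vegfb*) of all probe sets, and the dimmer probe sets of *Flt1*, *Cdh5* and *Npr3* went down to the 22.5th percentile. The mean signal of 7 epidermis markers was between 4.97 and 6.03 in every group except BG EDL, where it reached 8.11.

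In *soleus* of flown mice the vascular receptors and the ligand *Vegfb* were lower than on the ground and *Agt* was higher. At an adjusted p under 0.05 in limma, 9 of the 16 probe sets (8 of the 10 genes) passed in BF vs. BG, 1 higher and 8 lower, against 22.3% of all probe sets tested. In BF vs. FC 9 of 16 passed, again 1 higher and 8 lower, against 23.7% of all. Both comparisons use the same 3 BF arrays. Groups without overlap were common: 9 of 16 member probe sets in BF vs. BG, against 38.8% of all probe sets. In BF vs. FC it was 12 of 16, in either direction, against 36.5% of all. The median change of the 16 was -0.46 in BF vs. BG and -0.37 in BF vs. FC, beside 0.04 and 0.01 over all probe sets.

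**Figure D1:**
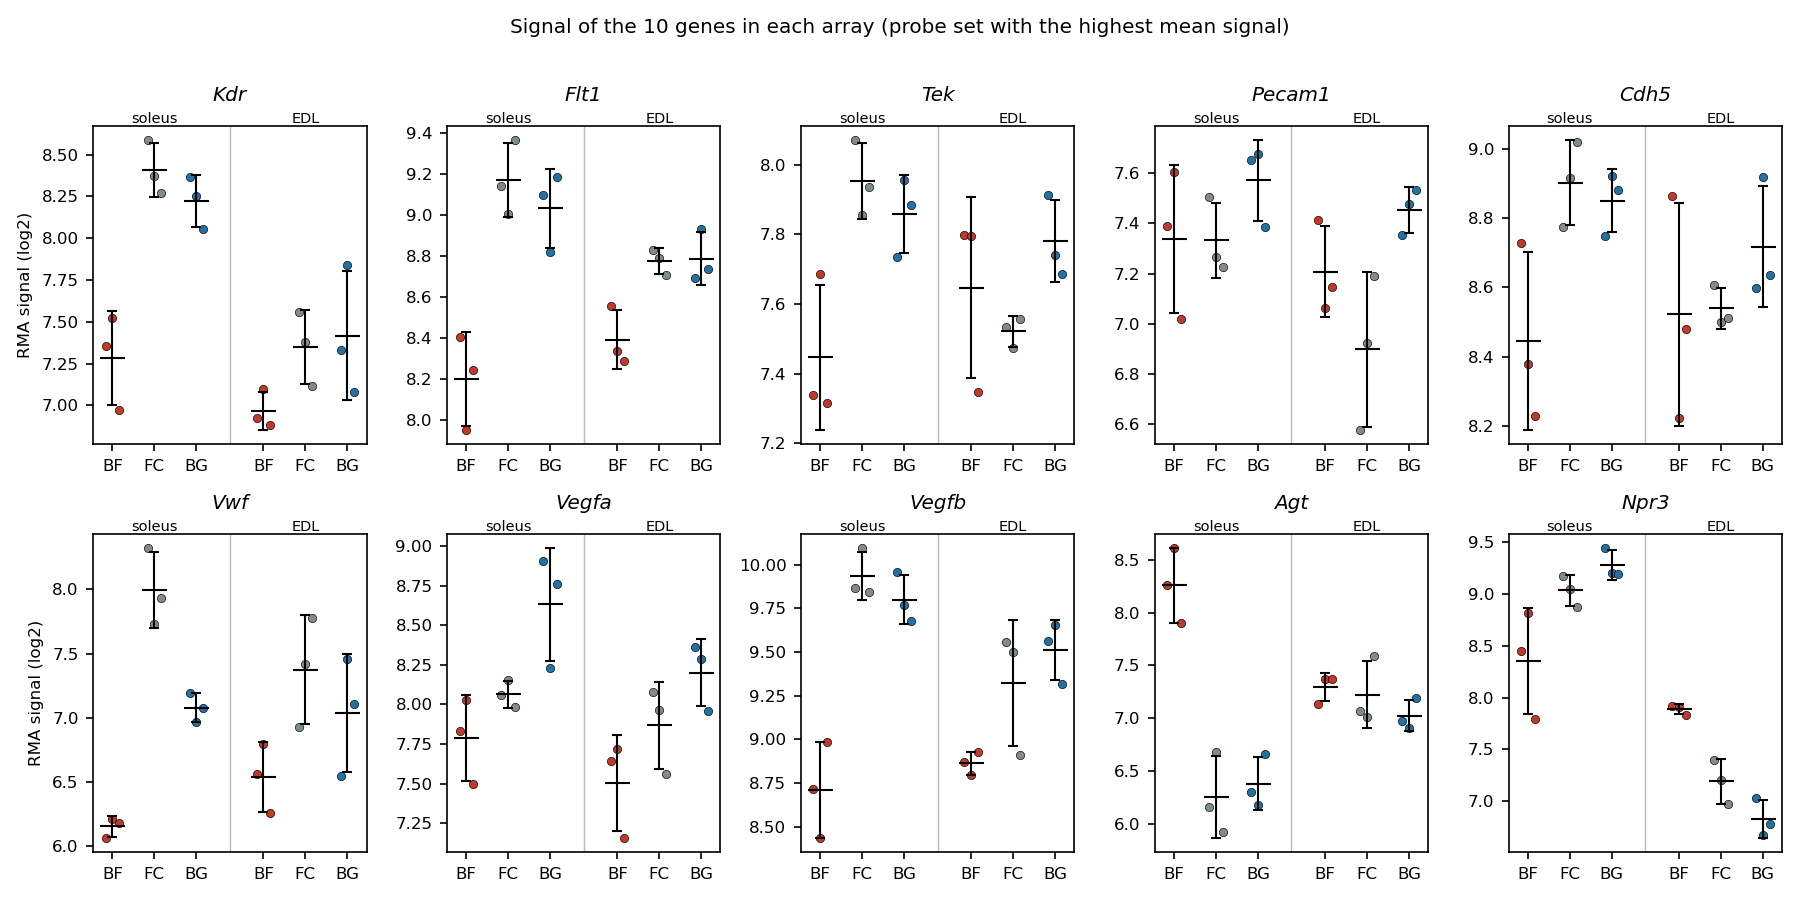
RMA signal (log2) of the 10 genes in each array, for the probe set with the highest mean signal. Points are arrays, with BF in red, FC in grey and BG in blue and *soleus* left of EDL, and bars give the mean and SD (n = 3). All 3 *soleus* BF points lie under both ground groups for *Kdr*, *Flt1*, *Tek*, *Cdh5*, *Vwf*, *Vegfb* and *Npr3* and over them for *Agt*. Over all probe sets 38.8% do not overlap in *soleus* BF vs. BG and 36.5% in BF vs. FC.

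*Vegfb* encodes a ligand of the receptor encoded by *Flt1* and is abundant in muscle and heart. Its signals in *soleus* were 8.72, 8.44 and 8.98 in BF, against 9.87, 10.10 and 9.85 in FC and 9.96, 9.77 and 9.68 in BG. The flown arrays were all below every ground array. The change was -1.09 ± 0.17 on the log2 scale (SE, 2.13-fold lower, adjusted p = 0.000328 in limma) in BF vs. BG and -1.22 ± 0.17 (2.34-fold lower, adjusted p = 9.05e-05) in BF vs. FC, and FC and BG differed by 0.14 (adjusted p = 0.65).

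*Vegfa* encodes the main growth factor of new capillaries. Its probe set 1420909_at read 7.84, 8.03 and 7.49 in BF *soleus*, 8.06, 8.15 and 7.98 in FC and 8.91, 8.23 and 8.76 in BG. BF was below all BG arrays and overlapped FC. The change was -0.85 ± 0.20 in BF vs. BG (1.80-fold lower, adjusted p = 0.00608), -0.28 in BF vs. FC (95% confidence interval -0.69 to 0.14, adjusted p = 0.335) and -0.57 in FC vs. BG (adjusted p = 0.0705). The second *Vegfa* probe set, 1451959_a_at, with a mean signal of 6.53, gave -0.14 in BF vs. BG (adjusted p = 0.677) and overlapped between all groups.

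*Kdr* encodes the main signalling receptor for vascular endothelial growth factor A. It read 7.36, 7.52 and 6.97 in BF *soleus*, 8.59, 8.37 and 8.27 in FC and 8.37, 8.25 and 8.06 in BG. The flown arrays were again below every ground array. It fell by 0.94 ± 0.18 (1.92-fold, adjusted p = 0.00175) in BF vs. BG and by 1.13 ± 0.18 (2.18-fold, adjusted p = 0.000326) in BF vs. FC.

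*Flt1* encodes the receptor that binds all 3 of the ligands Vegfa, Vegfb and placental growth factor, also as a soluble decoy. Its probe set 1419300_at read 8.40, 7.95 and 8.24 in BF *soleus*, 9.14, 9.00 and 9.36 in FC and 9.09, 8.82 and 9.19 in BG. No flown array reached a ground array, and the fall was 0.83 ± 0.14 (1.78-fold, adjusted p = 0.000538) in BF vs. BG and 0.97 ± 0.14 (1.96-fold, adjusted p = 0.000116) in BF vs. FC. The other bright probe set, 1451756_at, read 8.26, 7.85 and 8.29 in BF, 8.77, 9.09 and 9.27 in FC and 8.46, 8.12 and 8.74 in BG. It passed in BF vs. FC (-0.91 ± 0.17, adjusted p = 0.000889) and not in BF vs. BG (-0.31, adjusted p = 0.193), and FC was higher than BG (0.60, adjusted p = 0.0275). The FC vs. BG call was lost without moderation of the variances (adjusted p = 0.0553), with *soleus* fitted alone (0.0698) and without BG 1 (0.0638), BG 2 (0.128), FC 2 (0.102) or FC 3 (0.0949). The dim probe set 1454037_a_at lay between 4.76 and 5.74 in all arrays and passed in no comparison of the groups.

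*Tek*, the angiopoietin receptor, moved less. It read 7.34, 7.69 and 7.31 in BF *soleus*, 8.07, 7.86 and 7.94 in FC and 7.74, 7.96 and 7.88 in BG. BF lay below both ground groups, with BF 2 close to the lowest BG array. The fall was 0.41 ± 0.13 (1.33-fold, adjusted p = 0.0345) in BF vs. BG and 0.51 ± 0.13 (1.42-fold, adjusted p = 0.0104) in BF vs. FC. The call of BF vs. BG was lost without BF 1 (adjusted p = 0.114), BF 3 (0.104), BG 2 (0.115) or BG 3 (0.0936). After cyclic loess normalization neither was called (-0.30, adjusted p = 0.142, and -0.36, adjusted p = 0.0706).

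Von Willebrand factor, the endothelial carrier of clotting factor VIII and tether of platelets, differed between all 3 groups in *soleus*. *Vwf* read 6.06, 6.21 and 6.18 in BF, 8.32, 7.73 and 7.93 in FC and 7.19, 6.96 and 7.08 in BG. None of the groups overlapped. *Vwf* was 1.90-fold lower in BF vs. BG (-0.92 ± 0.22, adjusted p = 0.008), 3.58-fold lower in BF vs. FC (-1.84 ± 0.22, adjusted p = 3.9e-05) and 1.89-fold higher in FC vs. BG (0.92 ± 0.22, adjusted p = 0.0157). The FC vs. BG call was lost without BG 2 (adjusted p = 0.0552), BG 3 (0.0517) or FC 1 (0.0736).

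*Pecam1*, the adhesion molecule at contacts between endothelial cells, read 7.39, 7.61 and 7.02 in BF *soleus*, 7.50, 7.26 and 7.23 in FC and 7.65, 7.68 and 7.39 in BG. The groups overlapped, and the difference was -0.23 in BF vs. BG (95% confidence interval -0.58 to 0.11, adjusted p = 0.321) and 0.01 in BF vs. FC (-0.34 to 0.35, adjusted p = 0.983). *Cdh5*, the cadherin of endothelial junctions, read 8.73, 8.38 and 8.23 (1433956_at) in BF, 8.77, 8.91 and 9.02 in FC and 8.75, 8.92 and 8.88 in BG. The flown arrays were below every ground array, by a narrow margin for BF 1. Its difference was -0.40 ± 0.15 in BF vs. BG (adjusted p = 0.0672) and it was 1.37-fold lower in BF vs. FC (-0.46 ± 0.15, adjusted p = 0.0392). BF vs. FC was not called without BF 2 (adjusted p = 0.0967), BF 3 (0.149), FC 2 (0.0955) or FC 3 (0.133), nor after cyclic loess normalization of the arrays (-0.30, adjusted p = 0.166). The dim probe set 1422047_at, between 4.07 and 4.72 in all arrays, gave -0.02 and 0.29 and passed in neither.

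*Agt* was the member with the largest change in BF vs. BG and the only one that passed as higher in flown *soleus*. It read 8.26, 8.61 and 7.90 in BF, 6.16, 6.68 and 5.92 in FC and 6.30, 6.18 and 6.66 in BG. The lowest flown array was above the highest ground array by more than 1 on the log2 scale. *Agt* rose 3.68-fold in BF vs. BG (1.88 ± 0.21, adjusted p = 2.45e-05) and 4.02-fold in BF vs. FC (2.01 ± 0.21, adjusted p = 1.14e-05), and FC and BG differed by -0.13 (adjusted p = 0.752). No alternative processing or left-out array brought the rise below 1.71 in BF vs. BG.

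*Npr3*, the clearance receptor for natriuretic peptides, was lower in flown *soleus* by its brightest probe set. 1435184_at read 8.45, 8.81 and 7.80 in BF, 9.17, 9.05 and 8.88 in FC and 9.44, 9.20 and 9.19 in BG. The 3 groups did not overlap, and BF 3 was the lowest array. The fall was 0.92 ± 0.19 (1.90-fold, adjusted p = 0.00279) in BF vs. BG and 0.68 ± 0.19 (1.60-fold, adjusted p = 0.0154) in BF vs. FC. Without BF 3 the BF vs. FC fall was 0.40 (adjusted p = 0.0731), and without FC 1 it was 0.61 (adjusted p = 0.0562). After cyclic loess normalization it was 0.53 (adjusted p = 0.071).

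The other *Npr3* probe sets placed FC elsewhere. 1448024_at read 5.84, 6.16 and 5.31 in BF *soleus*, 5.60, 5.87 and 6.13 in FC and 7.20, 6.16 and 7.29 in BG. BG 1 and BG 3 were above all arrays of the other groups, and BG 2 was level with the highest BF array. It was lower in BF vs. BG (-1.11 ± 0.28, adjusted p = 0.00953, and 0.0555 without BG 3) and in FC vs. BG (-1.01 ± 0.28, adjusted p = 0.0278), and gave -0.10 in BF vs. FC (adjusted p = 0.829). Its FC vs. BG call was lost without moderation (adjusted p = 0.0716), with *soleus* fitted alone (0.055) and without BG 1 (0.105), BG 3 (0.133), FC 1 (0.106) or FC 2 (0.0909). 1450286_at, with a mean signal of 4.71, gave -0.51 in BF vs. BG (adjusted p = 0.0599), 0.45 in BF vs. FC (adjusted p = 0.0953) and was lower in FC vs. BG (-0.96 ± 0.19, adjusted p = 0.00455). The sign of BF vs. FC therefore differed between probe sets of the gene, and the probe set that passed there was the one with the highest signal.

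**Figure D2:**
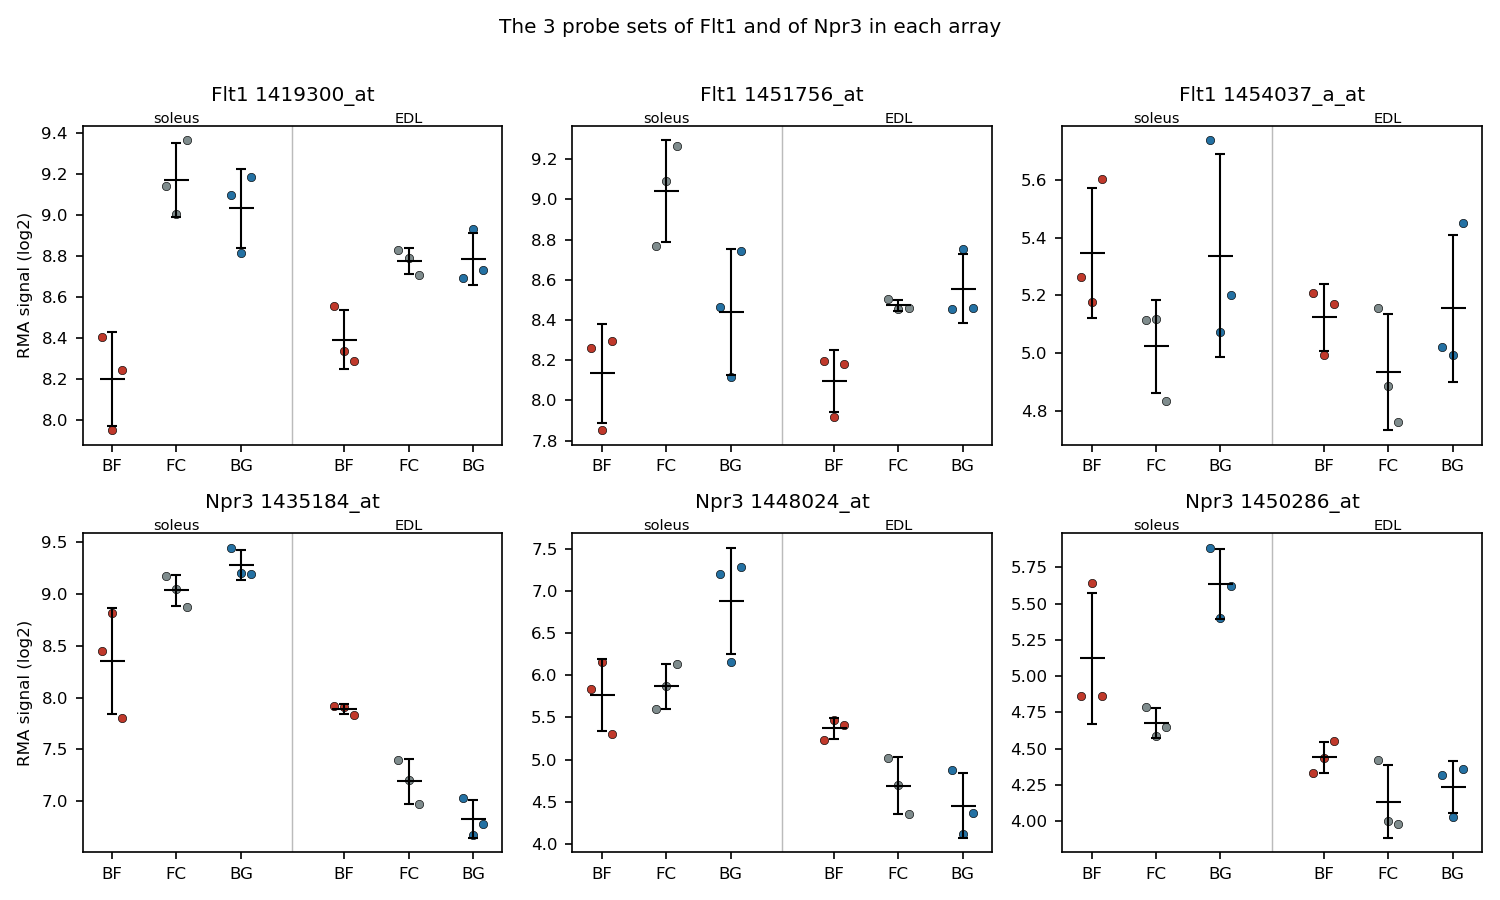
RMA signal (log2) of the 3 probe sets of *Flt1* (top) and of *Npr3* (bottom) in each array, with the mean and SD (n = 3), in the order BF, FC, BG for *soleus* and then EDL. In *soleus* FC lies with BG for Npr3 1435184_at (9.03 against 9.28) and with BF for 1448024_at (5.87 against 5.77), and the vertical scales differ between panels.

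The ground groups differed in some members of *soleus*. In FC vs. BG 4 of 16 probe sets passed, *Flt1* 1451756_at and *Vwf* higher and the dimmer *Npr3* probe sets lower, against 11.4% of all probe sets. *Kdr*, *Tek*, *Cdh5*, *Vegfb* and *Agt* overlapped between FC and BG, with differences between -0.13 and 0.19 for their brightest probe sets.

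In EDL a single probe set passed in each comparison of flown with ground mice. In BF vs. BG 1 of 16 passed, against 0.385% of all probe sets, and 9 of 16 had an unadjusted p under 0.05, against 11.9% of all. In BF vs. FC 1 of 16 passed, against 3.77% of all, and 7 of 16 had an unadjusted p under 0.05, against 17.6% of all. In FC vs. BG 0 of 16 passed in limma, against 0.0354% of all, and 1 of 16 (*Pecam1*) had an unadjusted p under 0.05, against 12% of all. In BF vs. BG 12 of the 16 differences were negative, with a median of -0.27, beside -0.02 over all probe sets.

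The probe set that passed in EDL BF vs. BG was *Npr3* 1435184_at, and it was higher. It read 7.92, 7.91 and 7.83 in BF EDL, 7.40, 7.21 and 6.97 in FC and 7.03, 6.68 and 6.78 in BG. The flown arrays were close together and above every ground array. *Npr3* rose 2.08-fold in BF vs. BG (1.06 ± 0.19, adjusted p = 0.0232), and BF vs. FC gave 0.70 ± 0.19 (1.62-fold, adjusted p = 0.0502, under the threshold in 9 of 27 alternatives). The BF vs. BG call was lost without any 1 of the 3 BF arrays, without BG 2 and without BG 3, while the change stayed between 0.98 and 1.16. Probe set 1448024_at read 5.23, 5.47 and 5.41 in BF EDL, 5.02, 4.70 and 4.36 in FC and 4.87, 4.12 and 4.37 in BG. BF was above all ground arrays there too, with a difference of 0.91 ± 0.28 in BF vs. BG (adjusted p = 0.188).

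*Vwf* was the probe set that passed in EDL BF vs. FC. It read 6.56, 6.79 and 6.25 in BF EDL, 6.93, 7.42 and 7.77 in FC and 6.55, 7.45 and 7.11 in BG. BF was below FC and overlapped BG. *Vwf* was 1.78-fold lower in BF vs. FC (-0.84 ± 0.22, adjusted p = 0.0475), a call that was lost in 17 of 27 alternatives, and gave -0.50 in BF vs. BG (adjusted p = 0.395).

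Several other members had flown EDL arrays below the ground arrays without passing. *Vegfb* read 8.87, 8.79 and 8.93 in BF EDL, 9.56, 9.50 and 8.91 in FC and 9.56, 9.65 and 9.32 in BG, a difference of -0.65 ± 0.17 in BF vs. BG (adjusted p = 0.11) and -0.46 in BF vs. FC (adjusted p = 0.142). *Flt1* 1419300_at read 8.55, 8.33 and 8.29 in BF EDL, 8.83, 8.79 and 8.70 in FC and 8.69, 8.93 and 8.73 in BG, a difference of -0.39 ± 0.14 in BF vs. BG (adjusted p = 0.252) and -0.38 in BF vs. FC (adjusted p = 0.137). *Kdr* read 6.92, 7.10 and 6.88 in BF EDL, 7.56, 7.38 and 7.12 in FC and 7.33, 7.84 and 7.08 in BG, a difference of -0.45 ± 0.18 in BF vs. BG (adjusted p = 0.325). *Flt1* did not overlap in either comparison, *Vegfb* did not in BF vs. BG and *Kdr* did not in BF vs. FC. Of the 16 member probe sets 7 did not overlap in EDL BF vs. BG, against 15.3% of all probe sets. In EDL BF vs. FC 6 of 16 did not, against 23.7% of all.

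*Vegfa* 1420909_at read 7.64, 7.72 and 7.16 in BF EDL, 8.08, 7.97 and 7.56 in FC and 8.36, 8.29 and 7.96 in BG, a difference of -0.70 ± 0.20 in BF vs. BG (adjusted p = 0.152). BF was below BG without overlap and overlapped FC. *Flt1* 1451756_at was between 7.92 and 8.19 in BF EDL, against 8.46 to 8.51 in FC and 8.45 to 8.76 in BG, with no overlap and a difference of -0.46 in BF vs. BG (adjusted p = 0.27). *Agt* read 7.14, 7.37 and 7.37 in BF EDL, 7.07, 7.01 and 7.59 in FC and 6.97, 6.91 and 7.19 in BG. Its EDL groups overlapped, with 0.27 in BF vs. BG (95% confidence interval -0.17 to 0.71, adjusted p = 0.663) and 0.07 in BF vs. FC (-0.37 to 0.51, adjusted p = 0.91). *Tek* ranged from 7.35 to 7.91, *Pecam1* from 6.58 to 7.53 and *Cdh5* 1433956_at from 8.22 to 8.92 over the EDL arrays, and none of them passed.

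**Figure D3:**
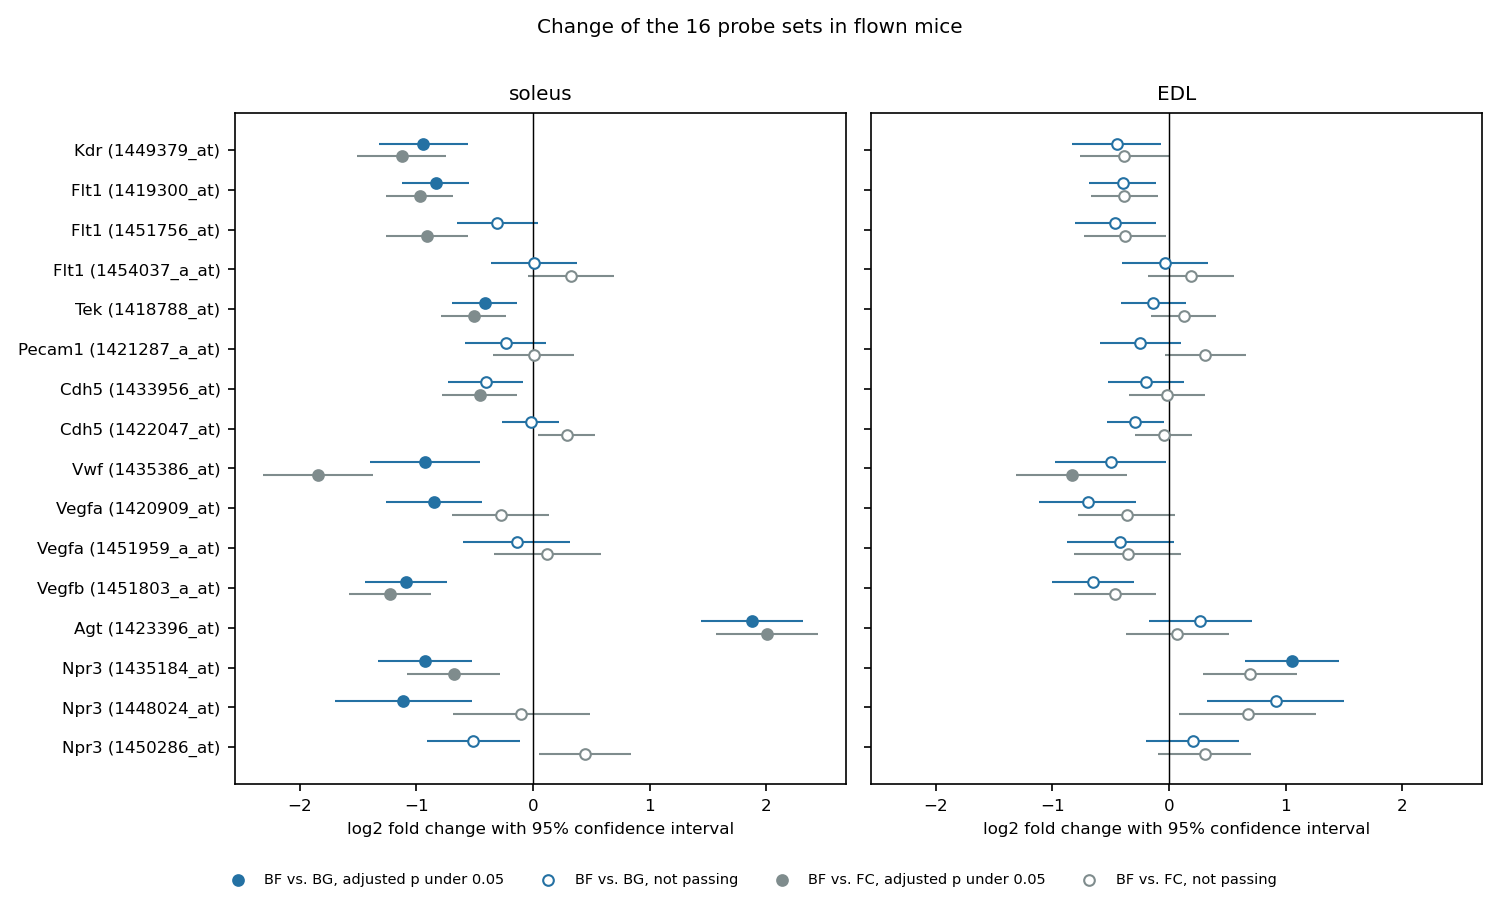
log2 fold change with its 95% confidence interval for the 16 probe sets in *soleus* (left) and EDL (right), for BF vs. BG in blue and BF vs. FC in grey. Filled points have an adjusted p under 0.05 in limma: 9 per comparison in *soleus* and 1 per comparison in EDL, with *Agt* at 1.88 and 2.01 in *soleus* and *Npr3* 1435184_at on opposite sides of 0 in the muscles.

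Whether the change of a gene differed between the muscles was tested as an interaction, the change in *soleus* minus that in EDL. For BF vs. BG 3 of 16 probe sets passed, against 9.27% of all, and for BF vs. FC 2 of 16 passed, against 1.79% of all. *Agt* differed by 1.61 ± 0.29 (adjusted p = 0.00526) for BF vs. BG and by 1.93 ± 0.29 (adjusted p = 0.00379) for BF vs. FC. *Npr3* 1435184_at differed by -1.98 ± 0.27 (adjusted p = 0.000878) and -1.38 ± 0.27 (adjusted p = 0.0138), and 1448024_at by -2.03 ± 0.39 (adjusted p = 0.00759) for BF vs. BG. Without moderation the 1435184_at difference for BF vs. FC was not called (adjusted p = 0.0532). The interactions of the other genes did not pass. For BF vs. FC they were -0.74 for *Kdr* (95% confidence interval -1.28 to -0.21, adjusted p = 0.155), -0.59 for *Flt1* 1419300_at (adjusted p = 0.132), -1.01 for *Vwf* (adjusted p = 0.119), -0.76 for *Vegfb* (adjusted p = 0.108) and -0.63 for *Tek* (adjusted p = 0.0983).

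The muscles differed in these genes on the ground. In *soleus* vs. EDL 2 of 16 probe sets passed in BF, against 11.7% of all, 7 of 16 in FC, against 15.1%, and 5 of 16 in BG, against 16.1%. *Kdr* was 2.09-fold higher in *soleus* than in EDL in FC (1.06 ± 0.18, adjusted p = 0.000658) and 1.75-fold in BG (0.81 ± 0.18, adjusted p = 0.0053), and the difference was 0.32 ± 0.18 in BF (adjusted p = 0.264). *Npr3* 1435184_at was 3.58-fold higher in *soleus* in FC (1.84, adjusted p = 7.13e-06) and 5.45-fold in BG (2.45, adjusted p = 3.22e-07), and in BF the difference was 0.47 ± 0.19 (adjusted p = 0.119). The dim *Npr3* probe set 1450286_at did pass in BF, higher in *soleus* (0.68, adjusted p = 0.0276). That call was lost without moderation (adjusted p = 0.0618) and without *soleus* BF 2 (0.15), EDL BF 1 (0.0907) or EDL BF 2 (0.0632). *Agt* had opposite signs, being higher in *soleus* than in EDL in BF (0.97 ± 0.21, adjusted p = 0.00894) and lower in FC (-0.97 ± 0.21, adjusted p = 0.00409) and BG (-0.65 ± 0.21, adjusted p = 0.0422). Without BF *soleus* 2 the BF difference of *Agt* was 0.79 (adjusted p = 0.0574), and the BG difference was lost in 9 of 26 alternatives. *Tek* (0.43), *Vegfb* (0.61) and *Flt1* 1451756_at (0.57) were also higher in *soleus* than in EDL in FC. The *Tek* call was lost with each array centred on its median and on leaving out any FC array of either muscle. The *Flt1* call was lost without moderation and on leaving out any FC array except *soleus* FC 1. The *Vegfb* call was lost without *soleus* FC 2 or EDL FC 3.

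Over the 6 groups the levels of *Agt* ran from BF *soleus* (8.26 ± 0.35, SD, n = 3 here and below) down to FC *soleus* (6.25 ± 0.39), with the 3 EDL groups between 7.02 and 7.29. BF *soleus* stood apart from the EDL groups, which overlapped each other and stood apart from both ground *soleus* groups, and those overlapped. The order for *Npr3* 1435184_at was BG *soleus* (9.28 ± 0.14), FC *soleus* (9.03 ± 0.15), BF *soleus* (8.35 ± 0.51), BF EDL (7.89 ± 0.05), FC EDL (7.19 ± 0.21) and BG EDL (6.83 ± 0.18). There the neighbours that overlapped were BF *soleus* with BF EDL and FC EDL with BG EDL. *Kdr* was highest in FC *soleus* (8.41) and BG *soleus* (8.22), which overlapped, and after a gap came BG EDL, FC EDL, BF *soleus* and BF EDL (7.42, 7.35, 7.28 and 6.97), each overlapping the next. *Vegfb* had the same shape, with FC and BG *soleus* (9.94 and 9.80) above all EDL groups and BF *soleus* (8.71) at the end. *Vwf* ended with BF *soleus* (6.15), which was below all arrays of the other groups, and *Tek*, *Pecam1*, *Cdh5* and *Vegfa* had overlapping neighbours throughout.

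The wider list held 20 angiogenic receptors, all measured. In *soleus* BF vs. FC 16 genes were lower and 1 was higher, with a median of -0.60, beside 16% lower and 9.02% higher over all genes. Among the 17 genes that are not members 13 were lower, led by *Aplnr*, the apelin receptor (-1.77 ± 0.41, adjusted p = 0.00483), and *Ptprb*, the endothelial phosphatase that acts on Tek (-1.28 ± 0.15, adjusted p = 2.36e-05). *S1pr1*, the endothelial sphingosine phosphate receptor, was the 1 gene higher (0.56 ± 0.12, adjusted p = 0.00283). Without BF *soleus* 3 or without FC *soleus* 2 the number lower was 10.

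In BF vs. BG 7 receptors were lower and 1 was higher, with a median of -0.29, beside 12.3% and 11.1% over all genes. Besides the 3 members they included the coreceptor *Nrp1* (-1.04 ± 0.20, adjusted p = 0.0021) and the endothelial Notch receptor *Notch4* (-0.94 ± 0.17, adjusted p = 0.00099), and *Nrp2* was higher (0.45 ± 0.15, adjusted p = 0.0371). In FC vs. BG 6 receptors were higher and 0 were lower, beside 5.78% and 4.03% over all genes. In EDL *Ptprb* alone passed, lower in BF vs. FC (-0.75 ± 0.15, adjusted p = 0.00934), where 2.52% of all genes were lower.

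**Figure D4:**
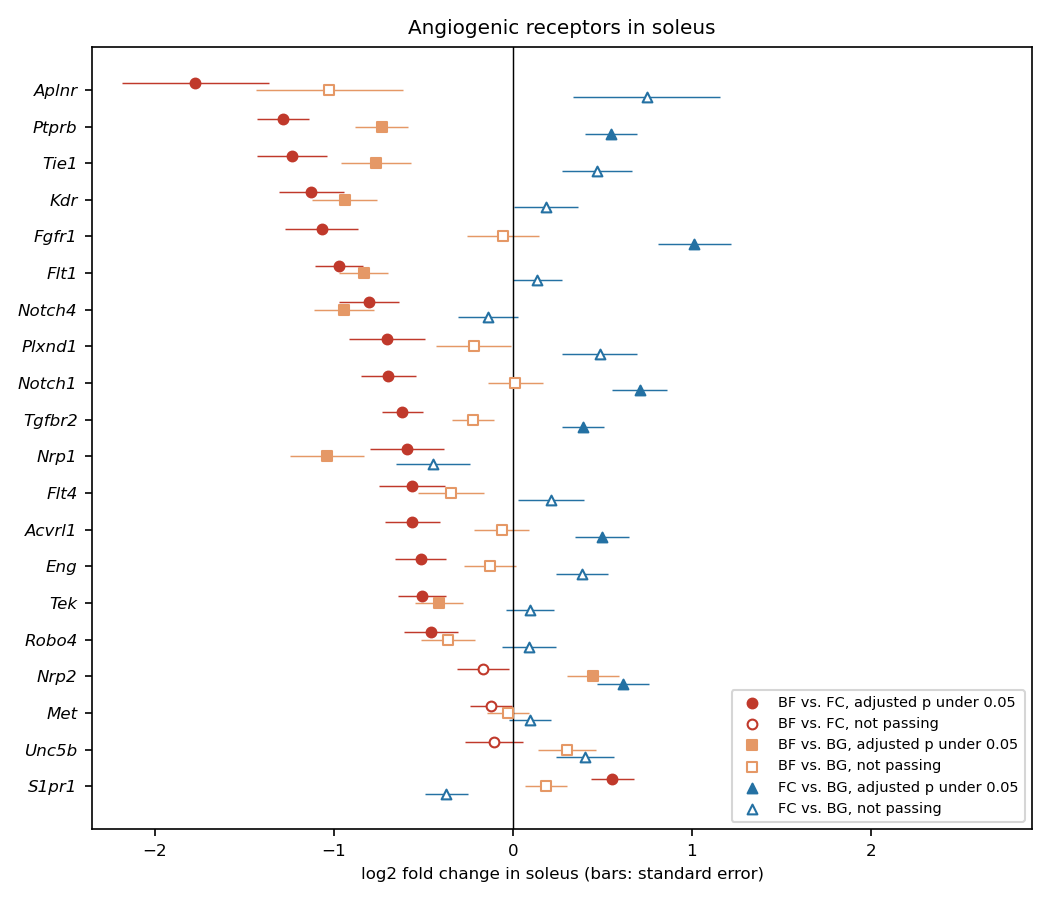
log2 fold change in *soleus* of 20 angiogenic receptor genes with its SE, ordered by BF vs. FC. Circles are BF vs. FC, squares BF vs. BG and triangles FC vs. BG, filled where the adjusted p is under 0.05: 16 circles are filled on the lower side, against 7 squares, and 6 triangles on the higher side.

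Angiogenic ligands and regulators moved both ways. Of 22 measured, 4 were higher and 4 lower in *soleus* BF vs. BG, and 5 higher and 3 lower in BF vs. FC. The medians were 0.09 and 0.05. Over all genes 11.1% were higher and 12.3% lower in BF vs. BG, and 9.02% and 16% in BF vs. FC. The inhibitor of angiogenesis *Serpinf1* was lower in both (-1.07, adjusted p = 0.0402, and -1.67, adjusted p = 0.00273). *Vegfb* was also lower in both, and *Vegfa* in BF vs. BG only. *Vegfd* was lower in both too, with a mean signal of 6.45 in BF, 7.57 in FC and 7.13 in BG. Placental growth factor (*Pgf*), another Flt1 ligand, was higher in both (0.88 ± 0.17, adjusted p = 0.00216, and 0.78 ± 0.17, adjusted p = 0.00375), so that ligands of one receptor had opposite signs. The angiogenesis inhibitor *Thbs1* (2.19 ± 0.37, adjusted p = 0.000498) and *Angptl4* (1.70 ± 0.45, adjusted p = 0.0111) were higher in BF vs. FC, where BF vs. BG gave 0.81 (adjusted p = 0.122) and 0.39 (adjusted p = 0.562).

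Of 26 endothelial surface and junction genes, 4 were higher and 3 lower in BF vs. BG, beside 11.1% and 12.3% of all genes. In BF vs. FC 2 were higher and 3 lower, beside 9.02% and 16% of all genes. The medians were -0.10 and -0.01. *Mcam* and the tight junction gene *Cldn5* were higher in both comparisons, and the water channel *Aqp1* was lower in both. *Mcam* gave 0.83 ± 0.20 in BF vs. BG (adjusted p = 0.00654). In BF vs. FC *Cldn5* gave 0.74 ± 0.13 (adjusted p = 0.000771) and *Aqp1* -0.69 ± 0.17 (adjusted p = 0.00772). The fatty acid transporter *Cd36*, which muscle fibres and adipocytes also express, was lower in BF vs. BG only (-0.75 ± 0.16, adjusted p = 0.00314). The mean signal over the 26 genes was 7.39 to 7.86 in BF *soleus*, 7.65 to 7.83 in FC and 7.66 to 7.72 in BG, so the groups overlapped. In EDL 0 passed in BF vs. BG in limma, and 4 had an unadjusted p under 0.05, against 11.9% of all probe sets. In BF vs. FC *Vwf* was lower and *Cldn5* (0.92) and *Cd36* (0.74) were higher, beside 2.52% lower and 1.02% higher over all genes.

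Of 22 endothelial transcription factors and genes of oxygen sensing, 2 were lower in *soleus* BF vs. BG, the coactivator *Ppargc1a*, which raises *Vegfa* in muscle (-1.60 ± 0.34, adjusted p = 0.00321), and the oxygen sensor *Egln1* (-0.66 ± 0.11, adjusted p = 0.000642). In BF vs. FC 6 were lower and 1 higher, with *Sox17* at -0.94 (adjusted p = 0.0041) and *Egln1* at -0.76 (adjusted p = 0.000145). Of all genes 12.3% were lower and 11.1% higher in BF vs. BG, and 16% and 9.02% in BF vs. FC. *Ppargc1a* did not pass in BF vs. FC (mean 9.30 in BF and 10.16 in FC), and its BG arrays were spread from 9.83 to 11.85. *Hif1a* gave -0.04 and 0.08 and *Epas1* -0.49 (adjusted p = 0.0676) and -0.10, so the genes of the hypoxia-inducible factors themselves did not pass. 0 of the 22 passed in EDL in limma in either comparison. An unadjusted p under 0.05 was found for 3 in BF vs. BG and 2 in BF vs. FC, against 11.9% and 17.6% of all probe sets.

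The renin-angiotensin genes did not move with *Agt* as a group. Of 9 measured, 2 were higher (*Agt* and the peptidase *Mme*, 0.88 ± 0.27, adjusted p = 0.026) and 1 lower (*Ctsd*, -0.46, adjusted p = 0.0102) in BF vs. BG. The shares over all genes were 11.1% higher and 12.3% lower in BF vs. BG, and 9.02% and 16% in BF vs. FC. In BF vs. FC angiotensin-converting enzyme (*Ace*, -0.78 ± 0.14, adjusted p = 0.000604), *Anpep* (-1.05 ± 0.20, adjusted p = 0.00148) and *Ctsd* were lower. *Agt* and *Mas1* were higher there, but *Mas1* was dim. Its *soleus* arrays read at most 3.24 in BF and 3.00 in FC, below the lowest array median (6.17). *Ace* and *Anpep* were also higher in FC vs. BG (0.72 and 1.13), and in BF vs. BG they gave -0.06 and 0.09. In EDL 0 of 9 passed in limma. An unadjusted p under 0.05 was found for 0 in BF vs. BG and 2 in BF vs. FC, against 11.9% and 17.6% of all probe sets.

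Of 9 genes of the natriuretic peptide system, *Npr3* and the receptor for C-type natriuretic peptide *Npr2* were lower in *soleus*, *Npr2* by 0.63 ± 0.14 (adjusted p = 0.00417) in BF vs. BG and by 0.92 ± 0.14 (adjusted p = 0.000202) in BF vs. FC. The cyclic GMP kinase *Prkg1* was lower in BF vs. FC (-1.34 ± 0.40, adjusted p = 0.0213). *Npr1* gave 0.30 and 0.06, and the peptide genes *Nppa*, *Nppb* and *Nppc* lay between -0.22 and 0.46 and did not pass. Of 20 genes of nitric oxide, endothelin and related signals, 3 were higher and 1 lower in BF vs. BG, beside 11.1% and 12.3% of all genes. In BF vs. FC 1 was higher and 2 lower, beside 9.02% and 16% of all genes. The receptor *Calcrl* was lower in both (-0.71 in each, adjusted p = 0.0242 and 0.0207) and its partner *Ramp1* was higher in BF vs. BG (0.77, adjusted p = 0.0113), while *Ramp2* was lower in BF vs. FC (-0.67, adjusted p = 0.00446). Endothelial nitric oxide synthase (*Nos3*) gave 0.23 and -0.18 and endothelin 1 (*Edn1*) 0.24 and 0.03, neither passing.

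Markers of other cell types moved beside these genes in flown *soleus*, where 11.1% of all genes were higher and 12.3% lower in BF vs. BG. In BF vs. FC the shares were 9.02% and 16%. Of 6 adipocyte markers 5 were higher in BF vs. BG (median 2.11, *Lep* 2.96, *Cidec* 2.48) and 4 in BF vs. FC (median 1.32), and their mean signal was 8.60 to 9.92 in BF, 7.79 to 7.90 in FC and 7.32 to 7.77 in BG. Adipocytes express *Agt*, and their markers differed in EDL BF vs. BG by a median of 0.70, with 0 passing in limma. There 2 of the markers had an unadjusted p under 0.05, against 11.9% of all probe sets. Of 10 leukocyte markers the macrophage gene *Cd68* alone was higher in BF vs. BG (3.40 ± 0.39, adjusted p = 3.57e-05), while the general leukocyte gene *Ptprc* gave 0.34 (adjusted p = 0.452), and in BF vs. FC *Cd68* was higher (3.44) and *Csf1r* lower (-0.80).

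Of 12 smooth muscle and pericyte markers 2 were lower in BF vs. BG (*Smtn* -1.03, *Rgs5* -0.44) and 4 in BF vs. FC, with a mean signal of 8.20 to 8.47 in BF, 8.67 to 8.88 in FC and 8.38 to 8.45 in BG. For this and the next lists, 12.3% of all genes were lower and 11.1% higher in BF vs. BG. In BF vs. FC it was 16% and 9.02%. Of 8 fibroblast markers 1 was higher and 2 lower in BF vs. BG (*Col1a1* -1.88) and 4 lower in BF vs. FC. Of 5 tendon markers 4 were lower in BF vs. BG (*Chad* -2.28) and 3 in BF vs. FC, with a mean signal of 6.36 to 7.68 in BF *soleus* and 8.20 or more in both ground groups. Of 4 lymphatic markers 1 was higher in BF vs. BG (*Pdpn*) and 1 lower in BF vs. FC (*Flt4*). Of 7 epidermis markers 1 was higher in BF vs. BG (*Krt1*, mean 4.46 in BF and 3.91 in BG). Of 3 red blood cell markers 1 was higher there (*Hba-a1*, 4.70 and 4.38) and 1 lower (*Slc4a1*, 4.24 and 4.79). The means of *Krt1*, *Hba-a1* and *Slc4a1* were dim, below the lowest array median (6.17). Of 12 muscle fibre markers 3 were higher and 1 lower in BF vs. BG, with the fast fibre genes *Actn3* at 4.43 and *Myh4* at 4.26. In EDL BF vs. FC the smooth muscle gene *Smtn* (-0.97, adjusted p = 0.00234) and the tendon gene *Chad* (-2.27, adjusted p = 0.0291) were lower beside *Vwf*. The part of these cell types and fibre types in the changes of the vascular genes was not tested.

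The genes whose signal followed each member most closely over the 18 arrays were mostly not known as vascular, and the arrays share muscle and condition, which these correlations include. Pearson's r was 0.93 for *Agt* with *Tle1*, 0.96 for *Npr3* with *Ppp2ca*, 0.95 for *Kdr* with *Rnf44*, 0.94 for *Flt1* with *Tomm40l*, 0.94 for *Vegfb* with *Dnlz* and 0.93 for *Vwf* with *Ikbkb*. Endothelial genes stood among the 3 closest for *Cdh5* (*Tie1*, 0.86, and *Ramp2*, 0.84) and *Pecam1* (*Esam*, 0.82). *Vegfa* followed *Abhd17c* (0.87) and *Tek* followed *Car8* (0.81).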

How the data were processed

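RNA of *soleus* and EDL was hybridised by the study to Mouse Genome 430A 2.0 arrays. The authors deposited log2 signals made in Partek Genomics Suite 6.6 by RMA (background correction, quantile normalization over all arrays, log2 transformation, median polish). They were used as deposited, and the number of arrays limits the precision. Of 22690 probe sets 64 controls were left out, with no filter on signal. Samples were grouped by muscle, condition and number in their titles, and the BF EDL descriptions that name another mission were taken as slips.

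All 18 arrays entered a single model with 6 group means in limma 3.58.1 in R 4.3.3 (12 residual and 5.1 prior degrees of freedom), with Benjamini-Hochberg adjustment over 22626 probe sets. A call is an adjusted p under 0.05 at any fold. The members, the 16 gene lists (195 of 216 genes measured), the motifs and the rules were chosen with earlier results of these data known. Named were all member probe sets, up to 2 other genes per list with the largest change among those that passed, and the closest genes by correlation; other genes named singly were chosen after their values were seen. Genes are given by the probe set with the highest mean signal, and symbols came from the platform annotation, updated through Entrez numbers. On simulated data for *soleus* BF vs. BG, 30% of probe sets changed by 0.5, 80% by 1 and 96% by 1.5 were called (50 each, 22626 probe sets), and for EDL BF vs. BG 24%, 84% and 98%. The simulation changed few probe sets, while in the data 22.3% of all passed in *soleus* BF vs. BG and 0.385% in EDL BF vs. BG. The adjustment is therefore milder in *soleus* than simulated, and the similar rates do not mean that both muscles were read with equal sensitivity. Figures used matplotlib 3.10.9 in Python 3.11.15.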

Additional observations from a re-analysis of the deposited data

Results flagged for a closer look

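The change of *Agt* in flown mice differed between *soleus* and EDL by the test of the difference itself. It was 1.61 log2 units larger in *soleus* for BF vs. BG and 1.93 for BF vs. FC (adjusted p = 0.00526 and 0.00379 in limma), and all 3 BF *soleus* arrays were above all 6 ground *soleus* arrays while the EDL groups overlapped.

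*Npr3* changed in opposite directions in the muscles. The difference was -1.98 for BF vs. BG and -1.38 for BF vs. FC by 1435184_at (adjusted p = 0.000878 and 0.0138, the second 0.0532 without moderation) and -2.03 for BF vs. BG by 1448024_at (adjusted p = 0.00759). The 1448024_at difference for BF vs. FC was -0.78 (adjusted p = 0.368), and the *soleus* BF vs. FC values of the gene's 3 probe sets were -0.68, -0.10 and 0.45.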

How the results depend on the processing

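Of 43 member results past the threshold, 26 stayed past it and kept their sign in all alternatives run (up to 27 within a muscle and 26 across muscles), 17 were lost in at least 1 and 0 reversed. The alternatives were centring, cyclic loess, a filter on low signals, no moderation, separate muscles, 1 probe set per gene, replicate blocks, array weights and each array left out. Of 133 results not past it, 26 passed in at least 1. *Soleus* counts stayed within 1.5 times in BF vs. BG and BF vs. FC in all of these. With the study's thresholds, over 2-fold, the counts of probe sets were 3 in *soleus* BF vs. BG (3.33% of all probe sets), 4 in BF vs. FC (3.99%), 1 in FC vs. BG (1.47%), 0 in EDL BF vs. FC (0.826%), 0 in *soleus* vs. EDL in BF (2.43%), 3 in FC (3.21%) and 3 in BG (3.53%), and 5 and 1 of the receptor genes were lower in BF vs. FC and BF vs. BG (the receptor counts were added after seeing the data).

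Without moderation 2 passed in *soleus* FC vs. BG, 0 in EDL BF vs. BG, 0 in EDL BF vs. FC, 1 in the interaction for BF vs. FC and 1 in *soleus* vs. EDL in BF. With separate muscles 2 passed in *soleus* FC vs. BG. With 1 probe set per gene, which tests fewer, 1 passed in *soleus* FC vs. BG, 0 in EDL BF vs. FC, and 1 and 3 in *soleus* vs. EDL in BF and BG. With the probe sets of lowest mean signal left out 2 passed in EDL BF vs. FC. With array weights 2 passed in EDL BF vs. BG, 5 in EDL BF vs. FC, 1 in EDL FC vs. BG, 5 and 6 in the interactions for BF vs. BG and BF vs. FC, and 5 and 12 in *soleus* vs. EDL in BF and FC (weights from 0.303 for *soleus* BF 2 to 3.18 for EDL BF 1). Apart from fewer tests, the cause was not tested.

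With an array left out, counts ran from 7 to 10 in *soleus* BF vs. BG, 7 to 9 in BF vs. FC and 2 to 4 in FC vs. BG (2 without BG 1, BG 3, FC 1 or FC 2). In EDL they ran from 0 to 1 in BF vs. BG (0 without BG 2, BG 3 or any BF array), 0 to 2 in BF vs. FC (0 without any of EDL BF 1, BF 3, BG 3 and FC 2 or *soleus* BF 1, BG 1, BG 2, BG 3, FC 2 and FC 3, and 2 without *soleus* BF 2 or EDL BG 2) and 0 to 0 in FC vs. BG. The interactions ran from 3 to 4 and 2 to 3, and *soleus* vs. EDL from 0 to 3 in BF (0 without *soleus* BF 2, 1 without EDL BF 1 or BF 2), 4 to 9 in FC (4 without *soleus* FC 2) and 4 to 5 in BG. The receptors lower ran from 10 to 16 in BF vs. FC (10 without *soleus* BF 3 or FC 2) and 6 to 8 in BF vs. BG.

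Same-numbered arrays of different groups in a muscle correlated over 0.1 in their deviations in 7 of 18 pairs (median 0.05), and *soleus* and EDL of one number and group in 6 of 9 (median 0.14), against 1 of 18 for different numbers (median -0.07). Not every pair was over 0.1 and the labels do not say whether the muscles of one number share a mouse, so the numbers were not taken as pairs. With a random replicate block across muscles (correlation 0.10), added after seeing the data, 9 passed in *soleus* vs. EDL in FC, the interactions stayed at 3 and 2, and *Vwf* in EDL BF vs. FC was not called (adjusted p = 0.0526). With the replicate block within muscle 2 probe sets passed in EDL BF vs. FC and the other counts stayed within 1.5 times, and *Cdh5* in *soleus* BF vs. FC was not called (adjusted p = 0.0641).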
